A study of Rattus norvegicus with 4 samples.

Results

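Cdk1, Ccna2, Ccnd1 and Pcna are 4 genes of the cell division cycle, taken here by their Ensembl identifiers (ENSRNOG00000000632, ENSRNOG00000015423, ENSRNOG00000020918 and ENSRNOG00000021264) from 26406 features listed in each library. All 4 were listed, and all 4 were among the 12226 features that reached a mean over the libraries of 1 RPKM or more (reads scaled by gene model length and library total). The symbols come with the choice of the genes, because neither the deposited tables nor the reference table used here pairs these identifiers with a name. The RNA came from cultured ventricular muscle cells of 2-day-old Sprague Dawley rats. Every culture was transfected for 6 h, either with a negative control siRNA (siNeg) or with one that targets Chaer, a long noncoding RNA (siChaer), and RNA was collected after 48 h without further stimulus or with 50 µM phenylephrine (PE), an α1-adrenergic agonist that makes these cells hypertrophic. Each of the 4 combinations was 1 library, the labels name no separate cultures, and the series concerns the part of Chaer in the transcriptional response to phenylephrine. Reads in listed features numbered 33944988 to 39155363 per library. Nothing below has an error estimated from replicates. Intervals are at 95% and cover counting error only.

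Progression through the division cycle is driven by cyclin-dependent kinases, which are active only when bound to a cyclin. Cyclin D1 (Ccnd1) joins growth signals to entry into the cycle in G1, cyclin A2 (Ccna2) acts in S phase and G2, and Cdk1 is the kinase that drives entry into mitosis with cyclins A and B. Pcna is the sliding clamp that holds DNA polymerases on the template and also serves DNA repair. Heart muscle cells largely stop dividing soon after birth, and their later growth is mostly an increase in cell size, so transcripts of the S, G2 and M phases decline in the maturing heart.

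Many genes of S, G2 and M phase carry E2F sites, a cell cycle homology region (CHR) and CCAAT boxes near their start. Only Cdk1 and Pcna, 2 of the 4 genes, had a promoter window in the RefSeq table used here (assembly GRCr8), so these are shown. The 250 bases before the annotated start are printed 5′ to 3′ on the strand of the gene, Cdk1 at chr20:19265043-19265292 (plus strand) and Pcna at chr3:139955821-139956070 (minus strand). These positions belong to GRCr8 and not to rn5, the build named for the alignment. Capitals mark matches on either strand to E2F (TTTCCCGC, TTTGGCGC or TTTCGCGC), CHR (TTTGAA) and the CCAAT box (CCAAT, or ATTGG on the other strand).
Cdk1: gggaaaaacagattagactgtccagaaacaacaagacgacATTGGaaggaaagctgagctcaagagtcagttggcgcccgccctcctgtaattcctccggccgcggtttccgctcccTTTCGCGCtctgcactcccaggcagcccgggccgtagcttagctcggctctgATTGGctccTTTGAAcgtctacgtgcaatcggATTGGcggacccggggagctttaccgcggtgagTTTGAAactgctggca
Pcna: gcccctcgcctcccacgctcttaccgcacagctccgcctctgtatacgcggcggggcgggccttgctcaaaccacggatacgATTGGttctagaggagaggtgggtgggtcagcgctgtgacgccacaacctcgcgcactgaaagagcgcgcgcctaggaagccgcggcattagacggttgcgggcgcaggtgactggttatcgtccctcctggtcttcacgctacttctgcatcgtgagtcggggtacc

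The Cdk1 window held 1 E2F match, 133 to 126 bases before the start, 2 CHR matches at 72 to 67 and 16 to 11 bases, and 3 CCAAT boxes. The Pcna window held 1 CCAAT box and 0 matches to the other 2 motifs. Only the exact letters given above were searched, so 0 matches do not show that a window lacks such sites. Counted over the full 300 bases (250 before and 50 after the start) of all 33469 windows of that table, 1.72% held an E2F match, 18.3% a CHR match, 37.5% a CCAAT box, and 0.128% all 3. No matches overlapped each other in these 2 windows. A match describes letters and not a bound factor, and Ccna2 and Ccnd1 are given by their values alone.

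Cdk1 had 953 reads and 21.7 RPKM (20.3 to 23.1) with control siRNA, 891 reads and 21.2 RPKM (19.9 to 22.7) with control siRNA plus phenylephrine, 2007 reads and 41.8 RPKM (40.0 to 43.7) with Chaer siRNA, and 1500 reads and 30.9 RPKM (29.4 to 32.5) with Chaer siRNA plus phenylephrine. The libraries with control siRNA were the lower pair and those with Chaer siRNA the higher pair, without overlap of their counting intervals. Within the lower pair the intervals overlapped, whereas in the higher pair the unstimulated library stood above the stimulated one. The gene model of Cdk1 in the deposited values was 1188 bp long.

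Ccna2 was the weakest of the 4 genes in 3 of the libraries. Its level was 11.02 RPKM (10.2 to 11.9, 661 reads) with control siRNA and 8.19 RPKM (7.47 to 8.97, 469 reads) with control siRNA plus phenylephrine. It was 18.2 RPKM (17.2 to 19.3, 1194 reads) with Chaer siRNA and 13.8 RPKM (12.9 to 14.7, 914 reads) with Chaer siRNA plus phenylephrine. All 4 intervals were apart, with Chaer siRNA above control siRNA in each condition and phenylephrine below the unstimulated library under each siRNA. In the library with Chaer siRNA alone, Ccnd1 was lower than Ccna2, with overlapping intervals. The gene model was 1621 bp long.

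Pcna was the most abundant of the 4 genes in every library, at 58.7 RPKM (56.5 to 60.9, 2708 reads) with control siRNA and 48.6 RPKM (46.5 to 50.7, 2140 reads) with control siRNA plus phenylephrine. With Chaer siRNA it was at 74.7 RPKM (72.3 to 77.1, 3765 reads), and with Chaer siRNA plus phenylephrine at 57.1 RPKM (55.1 to 59.2, 2911 reads). The library with Chaer siRNA plus phenylephrine and the one with control siRNA alone had overlapping intervals, and the other levels were apart. Among the 12226 features, Pcna stood above 86.6% to 91.2% in level, depending on the library. The gene model was 1248 bp long.

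Ccnd1 varied least. It had 2597 reads and 18.4 RPKM (17.7 to 19.2) with control siRNA, and 2644 reads and 19.7 RPKM (18.9 to 20.4) with control siRNA plus phenylephrine. With Chaer siRNA there were 2632 reads and 17.1 RPKM (16.5 to 17.8), and with Chaer siRNA plus phenylephrine 3095 reads and 19.9 RPKM (19.2 to 20.6). Its highest level was 1.16 times its lowest, against 1.54 times for Pcna, 1.97 times for Cdk1 and 2.23 times for Ccna2. The order of libraries also differed. Chaer siRNA alone was the highest library for the other 3 genes and the lowest for Ccnd1, although its interval there touched that of control siRNA alone. The gene model was 3809 bp long.

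**Figure D1:**
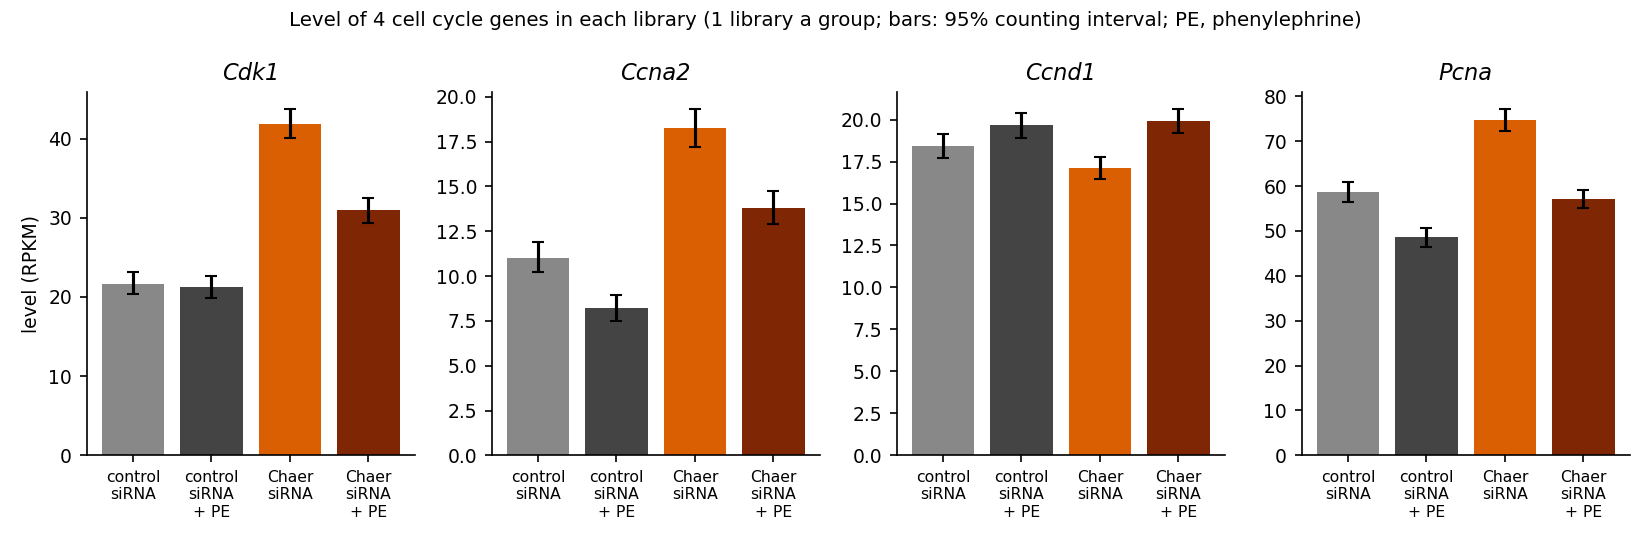
Level in RPKM (vertical axis, from 0, own scale for each gene) of Cdk1, Ccna2, Ccnd1 and Pcna in the 4 libraries (horizontal axis; PE, phenylephrine), with 95% counting intervals as error bars and 1 library per bar. Cdk1, Ccna2 and Pcna were highest with Chaer siRNA alone (41.8, 18.2 and 74.7 RPKM), and Ccnd1 lay between 17.1 and 19.9 RPKM.

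Chaer siRNA without phenylephrine set the siRNAs against each other in unstimulated cells. Cdk1 was 1.93 times higher (1.78 to 2.09) with Chaer siRNA, Ccna2 1.65 times (1.503 to 1.82) and Pcna 1.27 times (1.21 to 1.34), whereas the ratio of Ccnd1 was 0.928 (0.879 to 0.980). The median ratio over all features was 1.01. Of the 12226 features, 1.33% had a higher ratio of (RPKM + 1) than Cdk1, 3.39% than Ccna2 and 14.2% than Pcna. By the size rule of a 2-fold difference in (RPKM + 1), 0 of the 4 genes passed, beside 2.13% of all features. Cdk1 came nearest, at 1.89-fold on that scale, and its interval on the RPKM scale included 2-fold. With a 1.5-fold rule Cdk1 and Ccna2 passed, beside 11.1% of all features. RNA from a whole culture cannot tell apart a change in the share of cells that express a gene from a change in RNA per cell.

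Chaer siRNA with phenylephrine set them against each other in stimulated cells, in a pair of libraries that shares none with the unstimulated pair. Ccna2 was 1.69 times higher (1.51 to 1.89), Cdk1 1.46 times (1.34 to 1.58) and Pcna 1.18 times (1.11 to 1.24), and Ccnd1 had a ratio of 1.01 (0.961 to 1.07). Here Ccna2 had the highest ratio of the 4, with 3.08% of features above it, and Cdk1 followed with 5.77% above it. The median over all features was 0.976. Past 2-fold were 0 of the 4 genes, beside 1.85% of all features, and past 1.5-fold was Ccna2 alone, beside 8.78%.

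Each of Cdk1, Ccna2 and Pcna thus lay above no change in both pairs, beyond counting error. The ratio of Ccna2 was nearly equal in both, that of Cdk1 was smaller with phenylephrine, and the 2 intervals of Pcna overlapped. Ccnd1 lay just under no change without phenylephrine and within counting error of it with phenylephrine. The level of Chaer itself was not analysed here, so how far it was lowered is not part of these values.

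**Figure D2:**
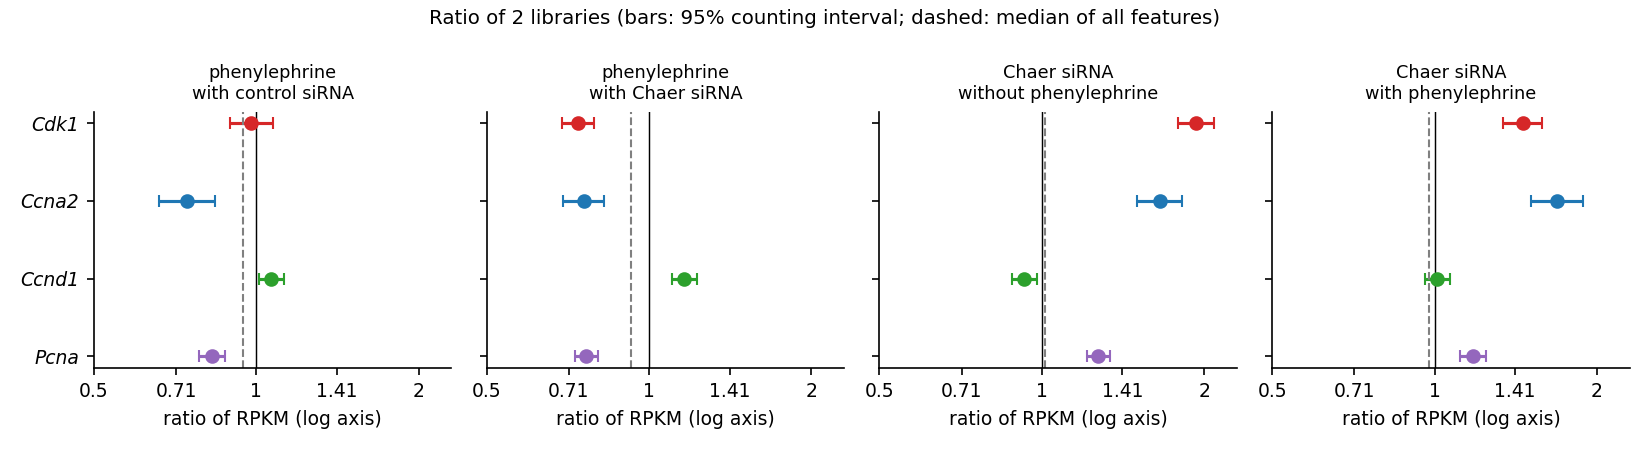
Ratio of RPKM between 2 libraries (horizontal log axis) for the 4 genes in the 4 comparisons, with 95% counting intervals, a solid line at a ratio of 1 and a dashed line at the median of all features. Cdk1, Ccna2 and Pcna lie right of 1 in both comparisons of the siRNAs, with ratios from 1.18 to 1.93, and Ccnd1 is at 0.928 and 1.01.

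Phenylephrine with control siRNA addressed the hypertrophic stimulus in cells given the control siRNA. Ccna2 was lower with phenylephrine, at a ratio of 0.743 (0.659 to 0.838), and so was Pcna at 0.828 (0.782 to 0.876). Cdk1 had a ratio of 0.979 (0.893 to 1.07), which did not differ from no change beyond counting error, and Ccnd1 had a ratio of 1.07 (1.01 to 1.13). The median of all features was 0.945, so that Cdk1 lay slightly above it. For Cdk1 the side of no change depended on the scaling between libraries, at 1.03 with TMM and 1.02 with median-of-ratios factors. Past 2-fold were 0 of the 4 genes, beside 1.73% of all features.

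Phenylephrine with Chaer siRNA addressed the same stimulus after the Chaer siRNA. The ratios of Cdk1, Ccna2 and Pcna were close to each other, at 0.739 (0.691 to 0.791), 0.757 (0.694 to 0.826) and 0.765 (0.728 to 0.803). Ccnd1 was higher, at 1.16 (1.10 to 1.23). The median of all features was 0.924 with the deposited scaling, and TMM moved it by 0.11 on the log2 scale. Relative to that median the log2 ratios were -0.32 for Cdk1, -0.29 for Ccna2, -0.27 for Pcna and 0.33 for Ccnd1. Past 2-fold were again 0 of the 4 genes, beside 1.97%.

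The phenylephrine ratios under the 2 siRNAs come from separate libraries, and their difference on the log2 scale (Chaer siRNA minus control siRNA) was -0.41 (-0.57 to -0.24) for Cdk1. A lower difference was found in 7.21% of all features, whose median was -0.06 and SD 0.31. For Ccna2 the difference was 0.03 (-0.18 to 0.24), for Pcna -0.11 (-0.22 to -0.01) and for Ccnd1 0.13 (0.02 to 0.23). If the ratios of Chaer siRNA and of phenylephrine had multiplied, that library would have held 41.0 RPKM of Cdk1, and it held 30.9 RPKM. The same product was 13.6 RPKM for Ccna2, 61.8 RPKM for Pcna and 18.2 RPKM for Ccnd1, beside measured levels of 13.8, 57.1 and 19.9 RPKM. With 1 library per group this difference has no test.

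**Figure D3:**
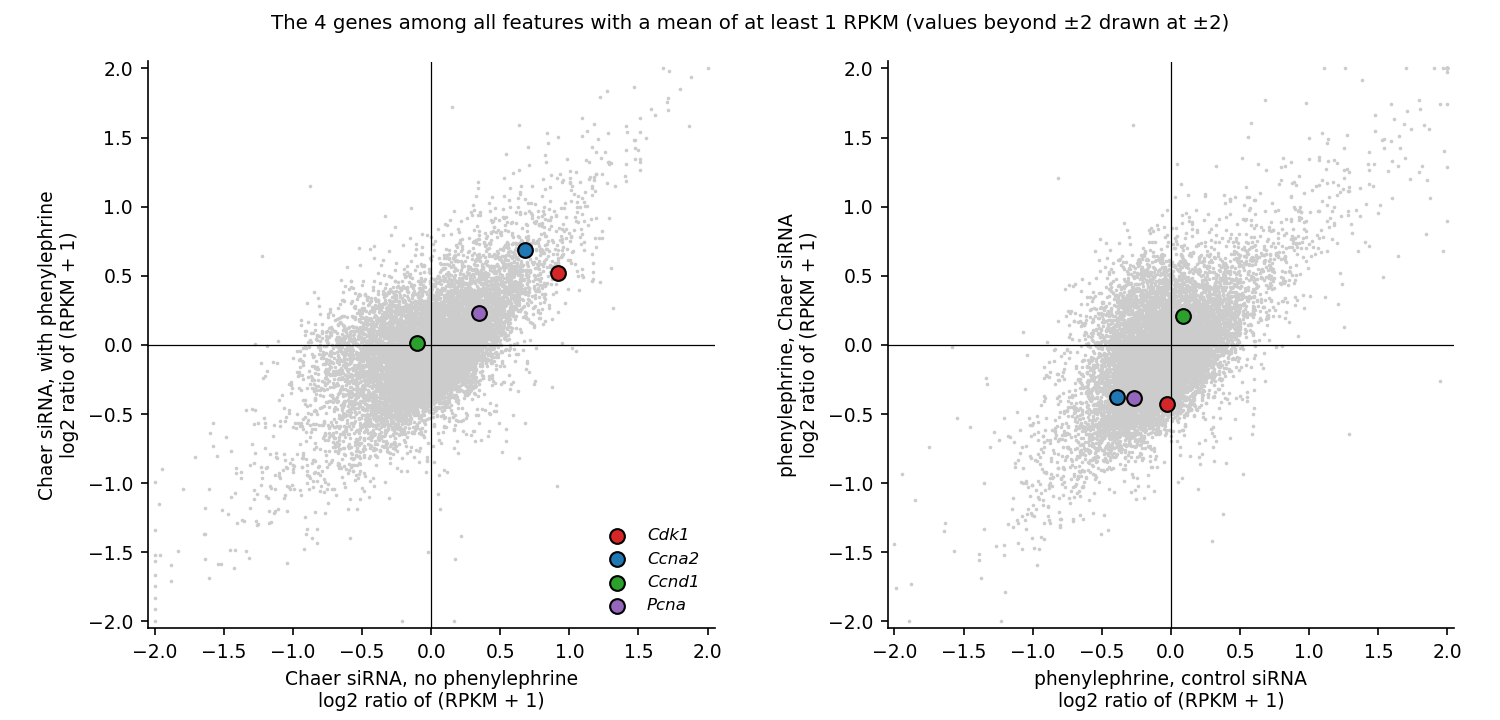
Log2 ratios of (RPKM + 1) of the 12226 features (grey points) and the 4 genes (coloured), left for Chaer siRNA without (horizontal) and with phenylephrine (vertical), right for phenylephrine with control siRNA (horizontal) and with Chaer siRNA (vertical). Values beyond 2 in size are drawn at the edge. On the left Cdk1, Ccna2 and Pcna lie in the upper right, and on the right Cdk1 lies near 0 on the horizontal axis and at -0.42 on the vertical axis.

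An additive edgeR quasi-likelihood fit over all 12226 features compared the siRNAs at equal treatment and the treatments at equal siRNA, 2 libraries against 2. Its error is the departure from additivity, with 1 residual degree of freedom per gene, taken from a trend over all features, and is not a replicate error. The prior degrees of freedom of that trend were infinite. The own departure of a gene thus had no weight, and its p-value did not rest on 1 degree of freedom. With Chaer siRNA, Cdk1 rose by 0.74 ± 0.15 (SE) in log2 units (edgeR, Benjamini-Hochberg adjusted p = 2.80e-05), which is 1.67-fold. Ccna2 rose by 0.73 ± 0.16 (edgeR adjusted p = 7.14e-05), which is 1.66-fold. Pcna had a term of 0.28 ± 0.14 (edgeR unadjusted p = 0.0446, edgeR adjusted p = 0.154) and Ccnd1 one of -0.05 ± 0.14 (edgeR adjusted p = 0.862). Of all features, 29.8% had an unadjusted p under 0.05. Neither Pcna nor Ccnd1 passed after adjustment. So 2 of the 4 genes were called higher with Chaer siRNA, beside 9.44% of all features, and 0 were called lower, beside 10.2%. DESeq2 with the same additive model also called Cdk1 and Ccna2 (adjusted p = 0.00239 and adjusted p = 0.00600), beside 5.39% of features called higher. In an edgeR model with the siRNA as the only term, both were lost, at an adjusted p = 0.167 for Cdk1 and an adjusted p = 0.217 for Ccna2. Its error holds the phenylephrine effect, but the SE rose only from 0.15 to 0.18 for Cdk1 and from 0.16 to 0.20 for Ccna2. The unadjusted edgeR p went from 1.30e-06 to 0.00518 for Cdk1 and from 3.75e-06 to 0.0108 for Ccna2. The prior degrees of freedom of the model with the siRNA alone were not recorded here. What part of the loss comes from them or from the phenylephrine effect was not tested. The model with the siRNA alone called 1 of 12226 features higher (0.00818%) and 0 lower, with 1615 at an unadjusted p under 0.05. Nearly every call was thus lost with these genes.

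For phenylephrine, the same edgeR fit called 0 of the 4 genes higher, beside 8.76% of all features, and 0 lower, beside 6.59%. DESeq2 likewise called 0, beside 4.77% of features higher and 2.91% lower. In edgeR 1 gene, Ccna2, had an unadjusted p under 0.05, as had 26.3% of all features. The terms were -0.32 ± 0.16 for Ccna2 (edgeR adjusted p = 0.175), -0.23 ± 0.14 for Pcna (edgeR adjusted p = 0.299), -0.14 ± 0.15 for Cdk1 (edgeR adjusted p = 0.621) and 0.25 ± 0.14 for Ccnd1 (edgeR adjusted p = 0.249). The lower Ccna2 and Pcna ratios with phenylephrine therefore exceeded counting error in both pairs of libraries without passing this fit. The squared log2 differences of each gene over the 4 libraries were divided at the deposited scaling. The siRNA held 85.3% of them for Cdk1 and 76.1% for Ccna2, and phenylephrine 8.35% and 23.9%. For Pcna phenylephrine held the larger share, 55.2%, and the siRNA 43.1%. That order depended on the scaling, as the TMM-scaled edgeR terms of Pcna were -0.23 for phenylephrine and 0.28 for Chaer siRNA. For Ccnd1 phenylephrine held 80.2% and the siRNA 6.73%. The departure from additivity held 6.33% for Cdk1, 0.0253% for Ccna2, 1.65% for Pcna and 13.0% for Ccnd1.

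Ratios between genes of 1 library do not depend on how libraries are scaled. The RPKM of Cdk1 over that of Ccnd1 was 1.18 (1.09 to 1.27) with control siRNA, 1.08 (1.00 to 1.17) with control siRNA plus phenylephrine, 2.44 (2.31 to 2.59) with Chaer siRNA and 1.55 (1.46 to 1.65) with both treatments. Both Chaer siRNA libraries exceeded both control siRNA libraries. Ccna2 over Ccnd1 went from 0.598 (0.548 to 0.652) to 1.07 (0.995 to 1.14) with Chaer siRNA alone, and from 0.417 (0.377 to 0.460) to 0.694 (0.644 to 0.747) in the presence of phenylephrine. Pcna over Ccnd1 was 3.18 (3.01 to 3.36) and 4.37 (4.15 to 4.59) without, and 2.47 (2.33 to 2.62) and 2.87 (2.73 to 3.02) with phenylephrine, in the order control then Chaer siRNA. Cdk1 over Ccna2, the kinase over its cyclin, was lowest with control siRNA, at 1.97 (1.78 to 2.18). It was highest with control siRNA plus phenylephrine, at 2.59 (2.32 to 2.91), and these intervals did not overlap.

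**Figure D4:**
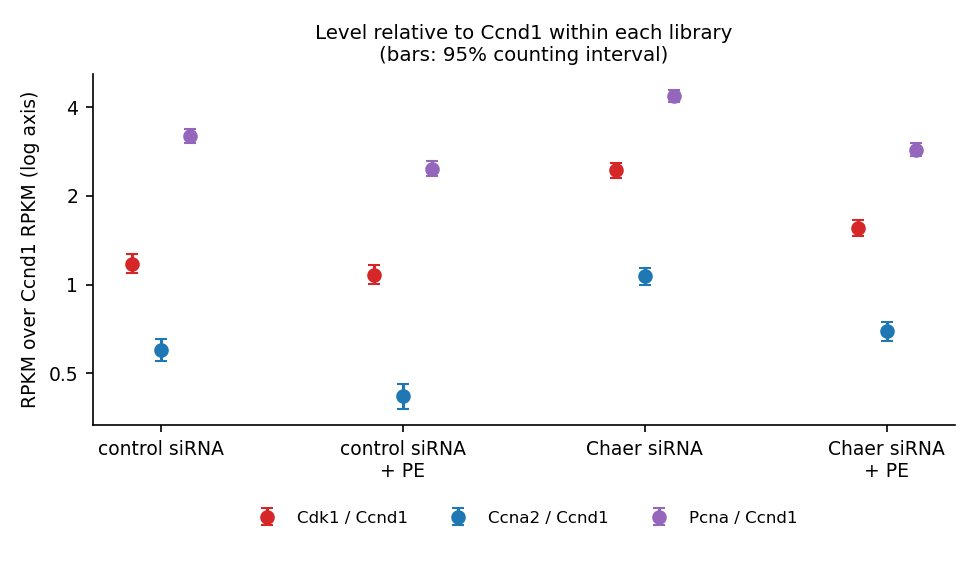
RPKM of Cdk1, Ccna2 and Pcna divided by that of Ccnd1 in the same library (vertical log axis) for the 4 libraries (horizontal axis), with 95% counting intervals. All 3 ratios are highest with Chaer siRNA alone, at 2.44, 1.07 and 4.37.

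Likeness of pattern was measured as the distance between log2(RPKM + 1) values over the 4 libraries after subtracting the mean of each feature. Ccna2 was the 178th nearest of 12225 other features to Cdk1 (distance 0.26), Pcna the 962nd (0.47) and Ccnd1 the 7183rd (0.89). Seen from Ccna2, Cdk1 was the 201st and Pcna the 744th. Seen from Pcna, whose levels varied less, Ccna2 was only the 4105th and Cdk1 the 5328th, with 33.6% and 43.6% of features nearer. The single nearest feature to Cdk1 was ENSRNOG00000012021 (13.2, 24.7, 12.9 and 19.02 RPKM with control siRNA, Chaer siRNA, control siRNA plus phenylephrine and both treatments), at a distance of 0.05. The nearest to Ccna2 was ENSRNOG00000028517 (3.07, 5.39, 2.12 and 3.89 RPKM), at 0.03, and the nearest to Ccnd1 was ENSRNOG00000046794 (49.1, 45.6, 52.1 and 52.5 RPKM), at 0.01. The feature nearest to Pcna was at 3.23, 4.34, 2.49 and 3.13 RPKM, at a distance of 0.01. These features have no symbol in the tables used here. With 4 values per feature many patterns come close by their shape alone, and all points share the same libraries. Adding 1 RPKM shrinks the changes of weak features most, so a small distance does not mean equal ratios of RPKM.

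The wider lists drawn up for this comparison, of G1, S, G2 and M phase genes, of inhibitors and E2F factors, and of markers of heart muscle cells, fibroblasts, endothelium, smooth muscle and macrophages, are lists of symbols. As 0 of the Ensembl identifiers matched the reference table, they were not analysed here. The labelled cell type was thus not checked against its markers, and the part of other cell types in the values above was not tested.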

How the data were processed

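RNA-seq of 4 libraries of total RNA, 1 per group, was analysed; libraries were made with a stranded TruSeq kit, per the labels' protocols. TopHat2 and the build rn5 are named in the submitters' processing notes. The sources used here name no counting tool, annotation or strand setting, so reads of genes overlapping on the other strand may be included. The authors deposited read counts and RPKM for each feature, per the file headers. Counts divided by RPKM gave gene lengths and library totals (35314303 to 40835172 reads). Computed here were ratios of RPKM with exact binomial intervals, levels with exact Poisson intervals, and differences of log2 ratios with a normal approximation; these cover counting error only, as the reads carry no molecular identifiers. The 2-fold rule used log2(RPKM + 1), which understates changes of weak genes. The additive fit across all features (siRNA + phenylephrine) used edgeR 4.0.16 in R 4.3.3 on the deposited counts, TMM scaling, features of mean RPKM 1 or more, and Benjamini-Hochberg adjusted p under 0.05; its SE is the log2 change over the root of F. DESeq2 1.42.0 was an alternative. Both rules were run on simulated counts with known changes. Those counts held counting error or the spread estimated by the fit itself, so they cannot check the calls against variation between cultures. Named features are the 4 genes and the nearest features by pattern, at most 2 higher and 2 lower with phenylephrine. The genes, lists and tests were chosen with earlier results of these data known.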

Additional observations from a re-analysis of the deposited data

Results flagged for a closer look

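Ccnd1 had ratios on opposite sides of no change for Chaer siRNA, 0.928 without and 1.01 with phenylephrine, a log2 difference of 0.13 (0.02 to 0.23, counting error only). The second ratio lay within counting error of no change, and the difference was not tested, since each group is 1 library.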

How the results depend on the processing

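No paired analysis was possible because there is 1 library a group, and none could be left out for that reason. Of 64 ratios under other scalings or a pseudocount, 55 stayed within their counting interval. With TMM, the phenylephrine ratios under Chaer siRNA became 0.800 for Cdk1, 0.828 for Pcna and 1.26 for Ccnd1, and with median-of-ratios factors 0.794, 0.821 and 1.25. With TMM the phenylephrine ratio of Ccnd1 under control siRNA became 1.13. With the 20 features with the most reads left out of the total, the Chaer siRNA ratios without phenylephrine became 0.876 for Ccnd1 and 1.20 for Pcna. The 1.5-fold rule passed 2 genes for Chaer siRNA without phenylephrine, beside 11.1% of all features, and 1 with it, beside 8.78%. The 2-fold rule had passed 0 in both, beside 2.13% and 1.85%. The Chaer siRNA terms of Cdk1 and Ccna2 were each called in 4 of 5 alternatives, and every other term in 0 of 5. In all, 38 of 40 additive terms under alternatives kept their side of the threshold. The other 2 are the Chaer siRNA terms with only that factor in the model. They were 0.75 for Cdk1 and 0.73 for Ccna2 (edgeR adjusted p = 0.167 and adjusted p = 0.217). The error there holds the phenylephrine effect. The part of that effect in the loss, and the part of the degrees of freedom, was not tested. The size of p also varied among terms that kept their side. With a mean RPKM of at least 5 required, the Chaer siRNA terms had an edgeR adjusted p = 0.00471 for Cdk1 and adjusted p = 0.00354 for Ccna2. All 12 alternative differences of the phenylephrine ratios stayed within their intervals, which does not show that they stayed clear of no difference. For Pcna, whose interval ended at -0.01, the difference was -0.08 with TMM and -0.07 with median-of-ratios factors. Its interval was not recomputed at these scalings. For Ccnd1 the difference grew from 0.13 to 0.16 and 0.17. Counting error was at most 4.62% of a level, at the 469 reads of Ccna2.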
